A study of Mus musculus with 24 samples.

Results

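Mir150 is the mouse gene of the microRNA (miRNA) miR-150, and its level was followed through all 24 small RNA libraries of the study by the feature of that name. It was 1 of 254 miRNA features and 1 of 4408 features in all. A miRNA is a short RNA that guides Argonaute proteins to complementary sites in mRNAs and lowers their output. miR-150 is abundant in mature, resting T and B lymphocytes and is known to fall when they are activated. Its best known target is Myb, the gene of a transcription factor of blood progenitors and dividing lymphocytes. Extracellular vesicles (EVs) are membrane-bound particles that cells shed into their medium, and they carry small RNAs with them.

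The cells were CD4+ T cells from spleen and lymph nodes of wild-type C57BL/6 mice, and the EVs came from the medium of the same kinds of culture. The 8 groups held 3 libraries each, EVs and cells of 4 conditions. GW4869 cultures received 3 days of stimulation in the presence of GW4869, an inhibitor of neutral sphingomyelinase, an enzyme of vesicle budding. DMSO cultures received the same 3 days with DMSO, its vehicle, and for both the labels give no antibody dose. The stimulated cultures were kept for 3 days on plates coated with antibodies to CD3 (at 2 µg/ml) and to CD28 (at 5 µg/ml). The resting cultures were not naive: 2 days of stimulation and 1 of expansion came before 2 days of rest in medium with IL2. Stimulation, time in culture and earlier treatment therefore cannot be told apart between resting and other cultures. Nothing in the labels ties the libraries of a group to different mice or dishes. The p-values therefore reflect only library to library spread, which may be technical.

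Total counts ran from 1290918 to 3231626 per library. Mir150 had 2071 to 42558 counts in a library, so that counting error alone was 0.485% to 2.2% of its value, below the spread between libraries. Mir142, a miRNA of all blood cells, was the most abundant of the 6 measured pan-leukocyte markers, with 230200 CPM in resting cells (CPM, counts per 1e6 after TMM scaling of library size). Of 27 miRNA markers of erythroid, myeloid, platelet, liver, epithelial, muscle and stromal cells, 5 were measured. The erythroid marker Mir451a, the only measured one of 4, stood at 48.2 to 95.9 CPM in resting EVs and 9.68 to 31.4 CPM in resting cells, and its part in any result was not tested. In such bulk libraries, fewer cells of a type and less RNA per cell cannot be told apart.

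Mir150 lies on chromosome 7 from 45121757 to 45121821 on the plus strand (GRCm38, GENCODE M21, ENSMUSG00000065495.1). No other annotated gene overlapped it, and no other feature had the same counts. The feature names the precursor, and its counts do not separate the arms miR-150-5p and miR-150-3p. RefSeq (GRCm38.p6) gives the 3p arm at chr7:45121798-45121819, plus strand, printed here because it is the arm that the table holds, with the seed, bases 2 to 8, in capitals.
mmu-miR-150-3p: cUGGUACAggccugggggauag
The sequence has 22 bases, of which 14 are G or C. None of the other sequences among the 1738 mature miRNAs of the RefSeq table had this seed. The table held no sequence of miR-150-5p, so the seed of that arm was not compared. Of the 254 measured miRNA names, 184 had a mature sequence in that table.

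Mir150 was high in both kinds of resting library and low in every other one. It stood at 30470, 24370 and 22280 CPM in the 3 resting EV libraries, against 22850, 22530 and 26990 CPM in the resting cell libraries, and these overlapped. Stimulated EVs had 2594, 2602 and 4126 CPM, against 1382, 1910 and 1393 CPM in stimulated cells, with every EV library above every cell library. DMSO EVs had 1869, 3088 and 2107 CPM, against 1454, 1176 and 1549 CPM in DMSO cells, again with no overlap. GW4869 EVs, with 1429, 1337 and 1094 CPM, overlapped GW4869 cells, with 1656, 1381 and 1225 CPM. In order of level, resting EVs and resting cells came first, then stimulated EVs, DMSO EVs, stimulated cells, GW4869 cells, DMSO cells and GW4869 EVs. The one pair of neighbours in that order whose libraries did not overlap was resting cells and stimulated EVs. The order and these overlaps are those of TMM scaling. As a percentage of all counts, GW4869 EVs had 0.252, 0.217 and 0.184, against 0.170, 0.142 and 0.116 in GW4869 cells, with no overlap. On that scale stimulated cells had at most 0.170 and DMSO cells at most 0.151. Mir150 ranked 4 among the miRNA features in all 6 resting libraries. It ranked 11 to 13 in stimulated EVs and 34 to 38 in stimulated cells, 13 to 16 in DMSO EVs and 44 to 53 in DMSO cells, and 17 to 19 in GW4869 EVs and 36 to 49 in GW4869 cells.

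**Figure D1:**
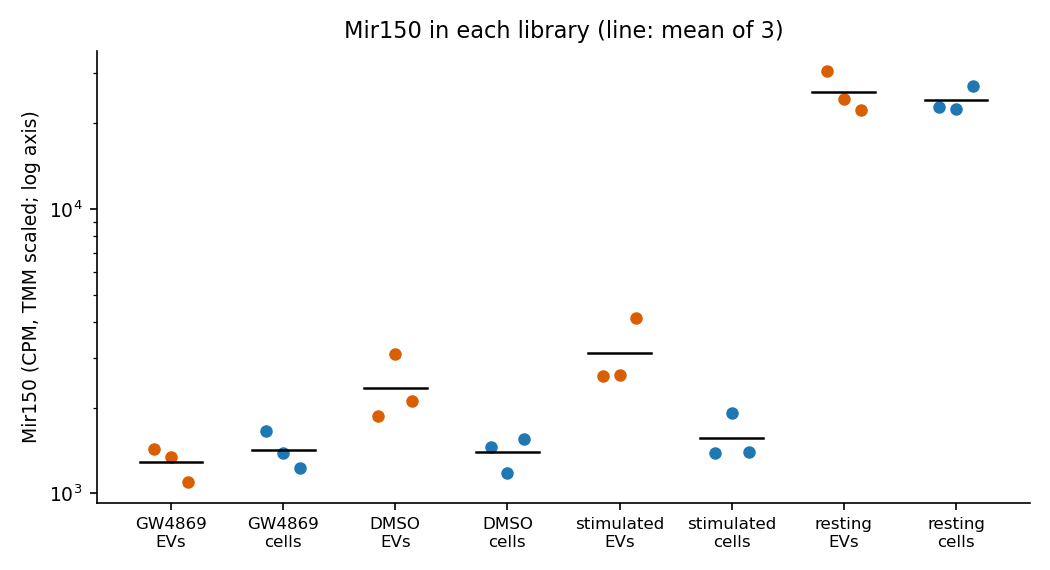
Mir150 in each of the 24 libraries (points; vertical axis, CPM with TMM scaling on a log scale), with the mean of each group as a line; EVs are orange and cells blue. The 6 resting libraries lie between 22280 and 30470 CPM, and the other 18 between 1094 and 4126 CPM.

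Stimulated cells were compared with resting cells to ask how the cells themselves differed. Mir150 averaged 1562 ± 302 CPM in stimulated cells and 24120 ± 2490 CPM in resting cells (SD, n = 3), a log2 fold of -3.95 ± 0.24 (SE), or 15.4-fold lower. The adjusted p was 5.81e-13 in edgeR's quasi-likelihood test, adjusted by Benjamini and Hochberg's method over all features. A call here means an adjusted p under 0.05, and 46.1% of all features were called in this comparison. Of the 254 miRNA features, 125 were lower and 23 higher, and 1 fell more than Mir150. DMSO cells, stimulated too, had a mean of 1393 ± 194 CPM and a log2 fold of -4.11 ± 0.25 against resting cells (adjusted p = 1.53e-12, 39.9% of features called). The 2 lines named Flt3l had equal values in DMSO and GW4869 libraries and separate ones in stimulated and resting libraries. A difference in how the 2 sets of libraries were tabulated and the DMSO treatment cannot be told apart in this comparison. The same holds for every comparison of DMSO with resting or stimulated cultures below.

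The EVs showed the same direction with a smaller fold. Mir150 averaged 3107 ± 882 CPM in stimulated EVs and 25700 ± 4250 CPM in resting EVs, a log2 fold of -3.05 ± 0.23, or 8.27-fold lower (adjusted p = 5.43e-11, edgeR). In this comparison 54.1% of features were called, and of the miRNA features 201 were lower and 8 higher. DMSO EVs, at 2355 ± 646 CPM, were lower than resting EVs by a log2 fold of -3.45 ± 0.24 (adjusted p = 1.01e-11, 56.8% of features called). The sizes depended on the scaling. With library totals in place of TMM, the median fold of all features moved up by 0.82 in cells and 1.12 in EVs, and Mir150 had -3.15 ± 0.20 and -1.95 ± 0.19. Relative to the total of miRNA counts it had -2.63 ± 0.20 in cells and -1.31 ± 0.20 in EVs. It was called lower under each of these scalings (adjusted p of at most 2.89e-06).

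Mir150 was set beside 22 features of miRNAs known from naive and resting T cells, itself included. Some are pairs of precursors, such as Mir29b-1 and Mir29b-2, that may share reads, so the members are not all separate miRNAs. In stimulated cells 125 of the 254 miRNA features were lower than in resting cells, with a median of -0.64, and 46.1% of all features were called. Of the 22 list members 20 were lower and 0 higher there, with a median of -1.77, against -0.05 for all features. The folds of the other 21 ran from -5.14 to -0.23. Mir139, the one member with a larger fall than Mir150, had 6.02 CPM in stimulated cells and 210.2 CPM in resting cells (-5.14 ± 0.38, adjusted p = 1.88e-11). Mir29a, the most abundant member after Mir150 in resting cells and a repressor of interferon gamma in T cells, had 4789 CPM in stimulated cells and 16700 CPM in resting cells (-1.80 ± 0.26). With library totals 16 members were lower and 1 higher, beside 2333 of all 4408 features called. Relative to the miRNA total 12 were lower and 2 higher, beside 3020 of 4408. In EVs 201 of the 254 miRNA features were lower in stimulated cultures, with a median of -1.21, and 54.1% of all features were called. Of the 22 list members 19 were lower and 0 higher there, with a median of -1.82. Relative to the miRNA total, 3 were lower and 5 higher there (median -0.07), beside 3786 of all 4408 features called, while Mir150 stayed lower.

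Of 17 miRNAs known to be induced by T cell activation, 15 were measured. In stimulated cells 4 of them were higher and 9 lower than in resting cells, beside 46.1% of all features called. Their median was -0.67, close to that of all 254 miRNA features (-0.64). Library totals turned the median of the 15 to 0.15, and the miRNA total to 0.68. Mir155, which T cells need for normal immune responses, was higher, with 11830 CPM in stimulated cells and 3747 CPM in resting cells (1.66 ± 0.18, adjusted p = 2.05e-08). Mir21a, a miRNA raised in many activated and growing cells, was lower, with 49000 CPM in stimulated cells against 131300 CPM in resting cells (-1.42 ± 0.30). Mir210, which hypoxia induces, had -2.42 ± 0.23, and Mir182, which IL2 induces in T cells, had -2.25 ± 0.25. No member had a larger fall in cells than Mir150. In EVs 1 was higher and 14 were lower, beside 54.1% of all features called, and 4 had a larger fall than Mir150. These EV counts were 3 higher and 8 lower with library totals, beside 3306 of all 4408 features called. They were 7 higher and 7 lower (median 0.09) relative to the miRNA total, beside 3786 of 4408.

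The ratio of Mir150 to Mir155 within a library does not depend on the scaling of library size. It was 0.121, 0.15 and 0.123 in stimulated cells, against 6.56, 6.14 and 6.61 in resting cells. In EVs it was 0.375, 0.343 and 0.466 in stimulated cultures, against 6.75, 5.53 and 5.69 in resting cultures. Stimulated and resting libraries did not overlap in either material, and Mir155 itself was higher in stimulated cells. With other partners the gap was smaller. In EVs the ratio to Mir142 was 0.0655 ± 0.016 in stimulated and 0.156 ± 0.0597 in resting cultures, and the ratio to Mir29a was 0.815 ± 0.0747 in stimulated and 1.87 ± 0.18 in resting cultures (SD, n = 3), again with no overlap. Between EVs and cells the ratio to Mir155 overlapped in resting cultures. It was higher in EVs in the other conditions: 0.395 ± 0.0637 in stimulated EVs against 0.131 ± 0.0164 in stimulated cells, 0.439 ± 0.0216 in DMSO EVs against 0.108 ± 0.0179 in DMSO cells, and 0.353 ± 0.0121 in GW4869 EVs against 0.152 ± 0.0229 in GW4869 cells (SD, n = 3). The libraries of EVs and cells did not overlap in these 3 conditions. Mir155 itself had lower mean CPM in EVs than in cells of each. It had 7789 against 11830 CPM in stimulated, 5344 against 12920 CPM in DMSO and 3652 against 9368 CPM in GW4869 cultures. Mir150 had 1287 CPM in GW4869 EVs and 1421 CPM in GW4869 cells, so the higher ratio there is not by itself a higher Mir150 level. In resting cultures the overlap of EVs and cells depended on the partner. The ratio to Mir142 overlapped too, at 0.103 to 0.22 in resting EVs and 0.094 to 0.129 in resting cells. The ratio to Mir29a did not, at 1.69 to 2.05 in resting EVs and 1.29 to 1.67 in resting cells. These ratios were not tested within a condition.

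**Figure D2:**
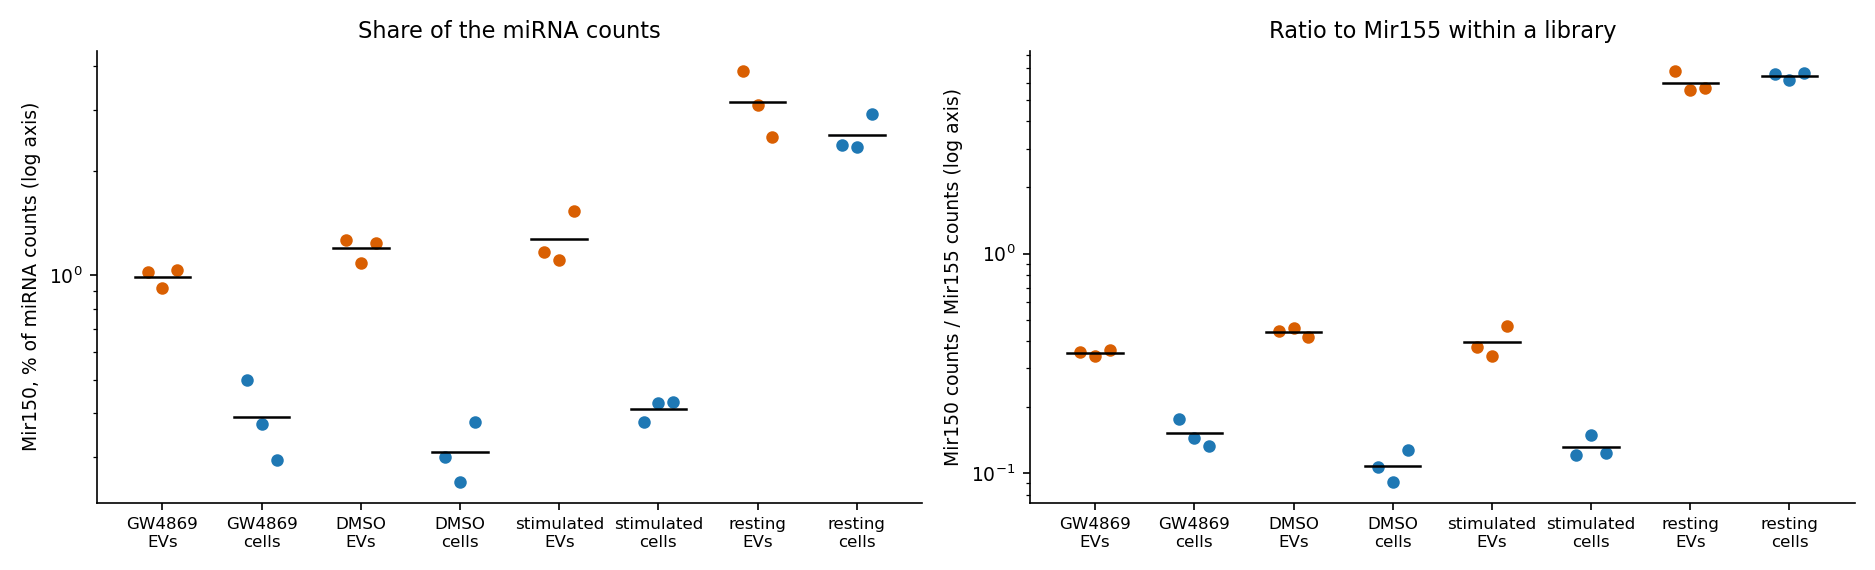
Left, Mir150 as a percentage of the miRNA counts of each library; right, Mir150 counts divided by Mir155 counts in the same library (both on log axes; points are libraries, lines group means, EVs orange and cells blue). In the 3 stimulated conditions the EV points of the ratio, 0.34 to 0.466, all lie above the cell points, 0.091 to 0.177, while resting EVs and cells overlap between 5.53 and 6.75.

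Whether EVs held more or less Mir150 than their cells was asked in each condition. In stimulated cultures Mir150 was 1.99-fold higher in EVs, a log2 fold of 0.99 ± 0.22 (adjusted p = 0.000471, edgeR), and 53.5% of features were called. It had the highest fold of the 254 miRNA features, whose median was -0.59, with 4 called higher and 123 lower. In DMSO cultures it was 1.69-fold higher in EVs (0.76 ± 0.22, adjusted p = 0.00388, 65.4% of features called). There it ranked 5 from the top among miRNA features with a median of -1.15, of which 5 were higher and 232 lower. In resting cultures the fold was 0.09 ± 0.22 with a 95% interval of -0.33 to 0.52 (adjusted p = 0.804, 34.3% of features called), and it ranked 83 from the top of the miRNA features. In GW4869 cultures it was -0.14 ± 0.22 with an interval of -0.57 to 0.28 (adjusted p = 0.572, 68.2% of features called), yet Mir150 ranked 6 from the top among miRNA features whose median was -1.44.

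**Figure D3:**
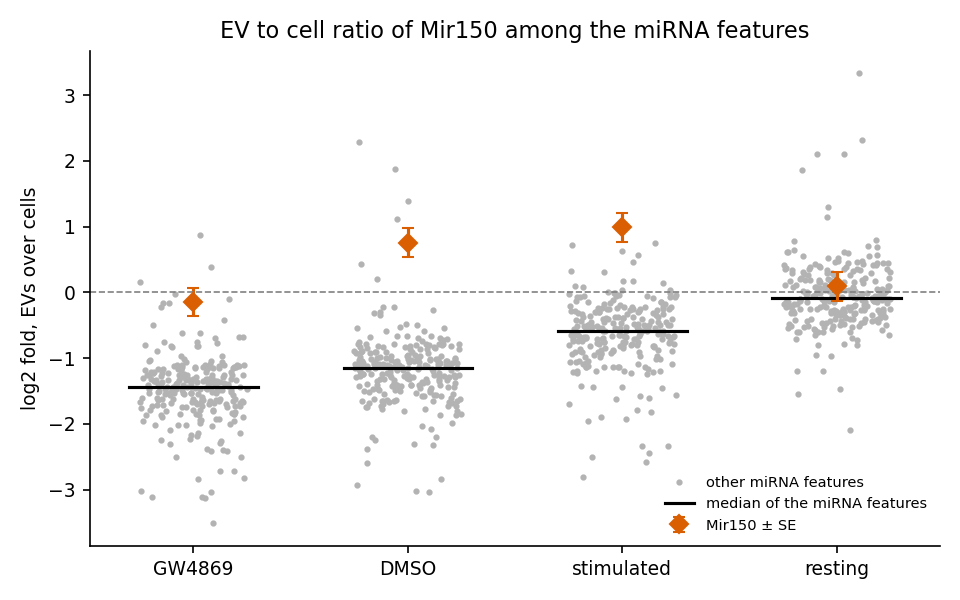
Log2 fold of EVs over cells (vertical axis) for Mir150 (diamonds, bars are SE) and the other miRNA features (grey points; the black line is the median of all 254) in each condition, from the TMM-scaled fit. Mir150 lies at the top of the miRNAs in stimulated cultures (0.99 against a median of -0.59) and close to their median in resting cultures (0.09 against -0.09).

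As a share of miRNA counts, Mir150 was higher in EVs than in cells of every stimulated condition. It took 1.27 ± 0.231% in stimulated EVs against 0.412 ± 0.0301% in stimulated cells, 1.2 ± 0.0983% in DMSO EVs against 0.31 ± 0.0634% in DMSO cells, and 0.991 ± 0.0634% in GW4869 EVs against 0.389 ± 0.104% in GW4869 cells (SD, n = 3). The share was 3.16 ± 0.688% in resting EVs and 2.54 ± 0.325% in resting cells, where libraries overlapped. For GW4869 cultures the scaling turned the direction: relative to the miRNA total the fold was 1.35 ± 0.20 (adjusted p = 1.94e-06), and with library totals 0.61 ± 0.18 (adjusted p = 0.00514). Over the 4 conditions the mean log2 difference of EVs over cells was 0.412, with p = 0.00905 in a two-sided exact permutation test over 160000 arrangements within conditions. The mean was 0.892 with library totals (p = 3.75e-05) and 1.313 relative to the miRNA total (p = 2.5e-05) in the same permutation test. The p was 0.0649 with RLE factors, and 0.0602 and 0.0864 without replicate 1 and without replicate 2 of every group.

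**Figure D4:**
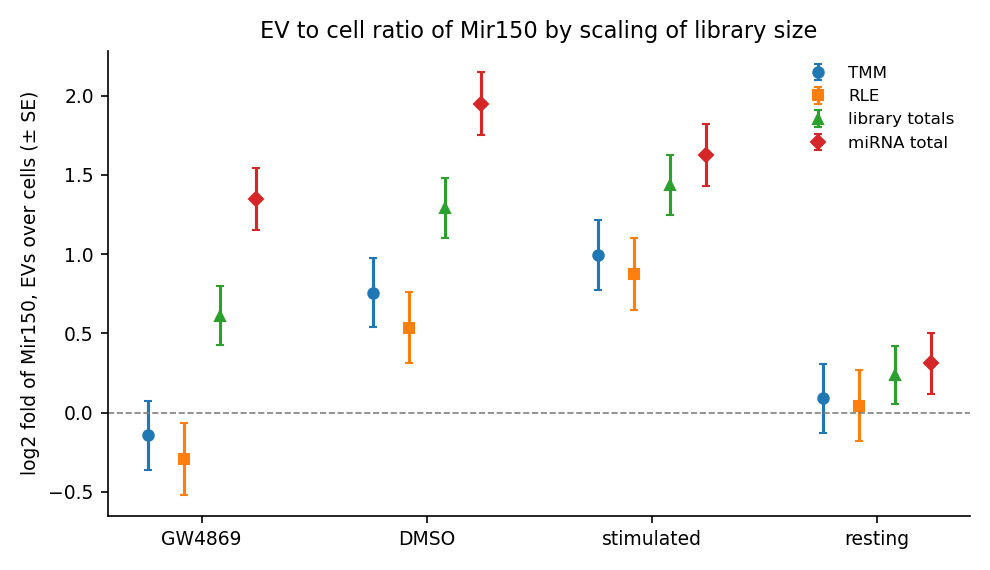
Log2 fold of Mir150, EVs over cells, in each condition under 4 scalings of library size (markers; bars are SE). In stimulated and DMSO cultures all markers lie above 0, between 0.54 and 1.95, whereas in GW4869 cultures TMM (-0.14) and RLE (-0.29) lie below 0 and library totals (0.61) and the miRNA total (1.35) above it.

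Among the 22 features of the naive and resting list, the EV to cell counts turned with the scaling. Pairs such as Mir181a-1 and Mir181a-2, or Mir29b-1 and Mir29b-2, may share reads. In stimulated cultures 3 of the 22 were higher in EVs, namely Mir150, Mir181a-1 (0.73 ± 0.21) and Mir181a-2 (0.57 ± 0.22). Lower were 4, Mir29b-1 and Mir29b-2 among them, and the median was -0.14. That was 7 of 22 called, a lower share than the 53.5% of all features called in this comparison. With library totals 9 were higher and 0 lower there, and relative to the miRNA total 12 and 0. DMSO cultures had 2 higher and 18 lower, beside 65.4% of all features called. Of the 254 miRNA features 5 were higher and 232 lower there. Relative to the miRNA total the list had 7 and 0, beside 3403 of all 4408 features called. GW4869 cultures had 0 higher and 18 lower, beside 68.2% of all features called. Of the 254 miRNA features 1 was higher and 237 were lower there. Relative to the miRNA total the list had 10 and 0, beside 3468 of all 4408 features called. In resting cultures 0 were higher and 0 lower in edgeR's test, beside 34.3% of all features called. Of the 254 miRNA features 16 were higher and 17 lower there. Of the list, 2 were lower at an unadjusted p under 0.05 and 1 was lower in DESeq2. Of the 15 activation-induced miRNAs, 11 were lower in stimulated EVs than in stimulated cells and 0 higher, beside the same 53.5%, and Mir155 was among the lower ones (-0.60 ± 0.17, adjusted p = 0.00475). Relative to the miRNA total 6 were lower and 3 higher, beside 2495 of all 4408 features called. Mir150 had a larger EV to cell fold than each of the 15 in stimulated, DMSO and GW4869 cultures.

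The difference of EV to cell ratios was then tested directly. The ratio of Mir150 was higher in stimulated than in resting cultures by a log2 difference of 0.90 ± 0.31 (adjusted p = 0.0243, edgeR), while the median over miRNA features was -0.55, and 35.8% of features were called. It ranked 2 from the top of the miRNA features. The direction held without each of the 12 libraries in turn, with values of 0.64 to 1.07, but the adjusted p reached 0.0995. With condition and replicate number as a block it was 0.889 (adjusted p = 0.055). Leaving out resting cells replicate 3, resting EVs replicate 2 or 3, stimulated cells replicate 1 or 3, or stimulated EVs replicate 3 ended the call. Stimulated EVs replicate 3, the highest of its group at 4126 CPM, had the strongest hold on it (0.64 without it). The difference between DMSO and resting cultures was 0.67 ± 0.31 (adjusted p = 0.085, 40.4% of features called). It passed with library totals (1.05, adjusted p = 0.00294), relative to the miRNA total (1.64, adjusted p = 8.97e-05) and without DMSO EVs replicate 1 (0.81, adjusted p = 0.0436). Between DMSO and stimulated cultures it was -0.24 ± 0.31, with an interval of -0.84 to 0.37 (adjusted p = 0.639, 18.6% of features called).

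GW4869 and DMSO cultures were compared to ask whether levels differed with the inhibitor. In EVs Mir150 averaged 1287 ± 173 CPM in GW4869 cultures and 2355 ± 646 CPM in DMSO cultures, a log2 fold of -0.87 ± 0.22, or 1.83-fold lower (adjusted p = 0.0102, edgeR, 17.6% of features called). All 3 GW4869 EV libraries lay below all 3 DMSO EV libraries. Among the miRNA features 48 were lower and 0 higher, with a median of -0.53. The call for Mir150 depended on the scaling and on single libraries. The fold was -0.51 with library totals (adjusted p = 0.0602), -0.27 relative to the miRNA total (0.306), -0.63 without DMSO EVs replicate 2 (0.078) and -0.64 without GW4869 EVs replicate 3 (0.0975). A fit to these 2 groups alone gave -0.84 (adjusted p = 0.188) and called 0 of 4367 features, although 867 had an unadjusted p under 0.05 and DESeq2 on the same libraries called 377.

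In cells Mir150 averaged 1421 ± 218 CPM with GW4869 and 1393 ± 194 CPM with DMSO, a log2 fold of 0.03 ± 0.22 with an interval of -0.40 to 0.46 (adjusted p = 0.981, 2.99% of features called). The sign of so small a fold turned with RLE factors (-0.05). The difference between the EV to cell ratios of GW4869 and DMSO cultures was -0.90 ± 0.31 and did not pass (adjusted p = 0.0702, 7.58% of features called). Of the alternatives run, it passed only without DMSO EVs replicate 1 (-1.04, adjusted p = 0.0304, edgeR). Relative to the miRNA total the adjusted p was 0.292. DMSO cultures were set against the stimulated cultures without vehicle, across the 2 sets of libraries that the Flt3l lines tell apart. Mir150 had a log2 fold of -0.17 ± 0.22 in cells (interval -0.59 to 0.26, adjusted p = 0.614, 29.0% of features called). In EVs it had -0.40 ± 0.22 (interval -0.83 to 0.03, adjusted p = 0.196, 23.5% of features called), and -0.64 without DMSO EVs replicate 2 (adjusted p = 0.0279).

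The features most like Mir150 were found by Pearson's r of log2 CPM over the 24 libraries, which share the split between 6 resting and 18 other libraries. Among the 253 other miRNA features the closest were Mir139 (r = 0.977), Mir221 (0.94), Mir26a-2 (0.925), Mir26a-1 (0.923) and Mir26b (0.92), and 6 exceeded 0.9. Mir26a-1 and Mir26a-2 give the same mature miRNA and may share reads. Over the 18 libraries outside the resting cultures, r was 0.681 for Mir139, 0.399 for Mir221 and between 0.038 and 0.139 for the Mir26 features. Mir139 also had means above those of its cells in stimulated EVs (10.1 against 6.02 CPM) and DMSO EVs (13.2 against 4.94 CPM), although its stimulated EV to cell fold did not pass (0.75 ± 0.38, adjusted p = 0.104). Of the 5 closest features outside the miRNAs, 4 were lines of Pde2a, the gene around Mir139, whose counts may hold the same reads. The fifth was the 5FR_1 fragment of tRNA-Lys-TTT-1-1 (r = 0.933), as the authors name it.

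**Figure D5:**
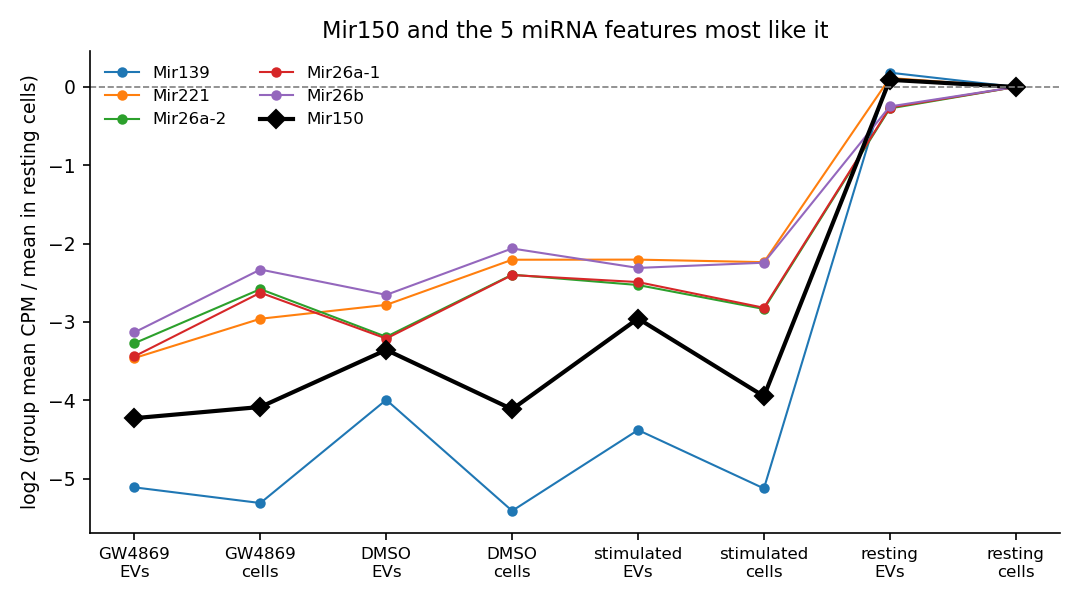
Group means of Mir150 (black) and of the 5 miRNA features with the highest correlation to it, as log2 of the mean CPM over the mean in resting cells (vertical axis) in the 8 groups. All 6 are near 0 in resting EVs and below -2 in the other groups, and Mir139 and Mir150 are the lines with EVs visibly above cells in both DMSO and stimulated cultures.

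Features of genes around Mir150 were described beside it. Within 50 kb the annotation holds 17 other genes, of which 9 were measured, on 10 lines. Among them were Rpl13a, a ribosomal protein gene, and the snoRNAs Snord32a, Snord33, Snord34, Snord35a and Snord35b, which guide the methylation of rRNA. In stimulated cells 8 of the 10 lines were higher than in resting cells and 0 lower (46.1% of all features were called), with folds of 0.41 to 1.69, while 5 were higher with RLE factors and 10 with library totals or the miRNA total. DESeq2 called 4 higher. Of all 4408 features, 2054 were called with RLE factors, 2333 with library totals, 3020 with the miRNA total and 2004 in DESeq2. Snord33 had 524.7 CPM in stimulated cells and 195 CPM in resting cells (1.43 ± 0.20, adjusted p = 1.93e-06), and it shares sequence positions, and so perhaps reads, with Mir5121. In stimulated EVs 9 of the 10 lines were lower than in stimulated cells and 0 higher (53.5% of all features were called). Snord33 stood at 77.9 CPM in stimulated EVs, against 524.7 CPM in stimulated cells (-2.75 ± 0.21), where Mir150 was higher in EVs. Rpl13a and the first Flt3l line had nearly equal means in every group (828 and 838.8 CPM in stimulated cells), so their counts may hold the same reads.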

How the data were processed

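Per the labels, small RNA libraries were made from Trizol-extracted total RNA of T cells and EVs. Reads were aligned with Bowtie to GRCm38 or mm10, per the submitters' processing notes; version, settings, treatment of multiply aligned reads and counting tool are not given in the sources used here. Values are unnormalized: the authors deposited whole-number counts per feature, per the file headers. No deposited value was below 4, and rarer features were not analysed here. Of 4441 lines, 33 full repeats were dropped, which left 4408 features.

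The counts went into edgeR 4.0.16 (R 4.3.3) with filterByExpr (minimum count 10, 0 features removed), TMM factors, and 1 quasi-likelihood model (glmQLFit, glmQLFTest) over 8 groups and 24 libraries, with Benjamini-Hochberg adjustment over all features. CPM used TMM scaling, and log CPM a prior count of 2. Intervals are the fold ± 1.96 SE. Simulated counts were used to test the script. The features named were Mir150, the 5 most and least alike, measured genes within 50 kb (1 of them is not reported here by name), and, per list, the 2 most abundant members and the 2 with the largest fold in stimulated against resting cells. Mir150, the lists and the tests were chosen with earlier results of these data known. The ratio to Mir155 and the miRNA total without Mir142b were chosen after seeing the data. DESeq2 1.42.0 was an alternative. Replicates of every group differed by more than sampling noise. Same-numbered EV and cell libraries deviated together (r over 0.1) in 2 of 12 pairs, so numbers were not treated as pairing libraries.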

Additional observations from a re-analysis of the deposited data

Results flagged for a closer look

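The EV to cell ratio of Mir150 differed between stimulated and resting cultures by a log2 difference of 0.901, and the test of that difference itself passed (adjusted p = 0.0243 in edgeR's quasi-likelihood test). The call was lost without any 1 of 6 of the 12 libraries (adjusted p up to 0.0995) and with condition and replicate number as a block (0.889, adjusted p = 0.055). EVs were above cells in 9 of 9 pairings of stimulated libraries, with ratios of 1.36 to 2.99, while the pairings of resting libraries ran from 0.825 to 1.35.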

How the results depend on the processing

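Mir150 kept its direction and call in stimulated over resting and DMSO over resting, in cells and in EVs, and in EVs over cells of stimulated and DMSO cultures, under every alternative run. With library totals, the EV over cell fold in GW4869 cultures became 0.611, GW4869 over DMSO in EVs -0.511, and the ratio difference of DMSO over resting 1.054. With the miRNA total these were 1.348, -0.273 and 1.639, and without Mir142b in that total 1.337, -0.318 and 1.711. The ratio difference of DMSO over stimulated then turned to 0.325 and 0.351. GW4869 over DMSO in cells turned to -0.052 with RLE factors and with DESeq2, and the mean over conditions fell to 0.279 with RLE factors. GW4869 over DMSO in EVs was -0.838 (adjusted p = 0.188) in a fit to its groups alone.

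A replicate block of condition and replicate number was run only for EVs over cells and for the ratio differences. With it, the ratio difference of stimulated over resting was 0.889 (adjusted p = 0.055), and no other of these calls changed. With replicate number alone as an additive block no call changed. In 3 of 12 pairs an EV library correlated best with the cell library of its own number.

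Leaving out each library in turn gave ratio differences of 0.643 to 1.072 for stimulated over resting, 0.422 to 0.807 for DMSO over resting, -0.48 to 0.023 for DMSO over stimulated and -1.042 to -0.651 for GW4869 over DMSO. It gave EV over cell folds of -0.049 to 0.185 in resting and -0.239 to 0.063 in GW4869 cultures. DMSO over stimulated ran from -0.248 to 0.006 in cells and -0.644 to -0.142 in EVs, and GW4869 over DMSO from -0.096 to 0.125 in cells and -1.013 to -0.628 in EVs. The mean over conditions ran from 0.38 to 0.442. The cause of these changes was not tested. Where a group had 2 libraries left, the spread was pooled over all groups. With TMM scaling, the other counts of 0 given above for lists, neighbours and miRNA features were also 0 at an unadjusted p under 0.05 and in DESeq2, except the list count in resting cultures; counts of 0 under the other scalings were not checked in this way.

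Counts of called features that moved by over 1.5 times were those of GW4869 over DMSO in cells (132, and 17 to 260 under alternatives) and in EVs (775, and 0 to 306, where the fit with 0 had 867 features at an unadjusted p under 0.05 and 377 in DESeq2), of the ratio difference of GW4869 over DMSO (334, and 28 to 529) and of DMSO over stimulated (818, and 536 to 1284), of DMSO over stimulated EVs (1038, and 349 to 669), and, with the miRNA total, of stimulated over resting EVs (2386, and 3786) and DMSO over resting EVs (2503, and 3978).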

Other observations

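The miRNA features least like Mir150 over the 24 libraries were Mir6240 (r = -0.782), Mir2137 (-0.746), Mir497 and Mir497b (-0.725 each, with equal counts) and Mir6236 (-0.62). These values rest on the split between resting and other libraries. Over the 18 libraries outside the resting cultures, r was 0.544 for Mir6240, 0.349 for Mir2137, 0.539 for Mir6236 and -0.15 for Mir497 and Mir497b. Mir6236 had 435.6 CPM in stimulated cells and 27.7 CPM in resting cells, a log2 fold of 3.97 ± 0.26 (adjusted p = 1.16e-12, edgeR). Mir497, of the miR-15/16 seed family, which restrains the cell cycle, had 62.6 CPM in stimulated cells and 15.4 CPM in resting cells (2.01 ± 0.30, adjusted p = 3.65e-06). It was lower in stimulated EVs, at 29.4 CPM, than in stimulated cells (-1.09 ± 0.26, adjusted p = 0.00116).

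Of 6 genes known as targets of miR-150, 2 were measured, as fragments inside the gene and not as mRNA levels. Foxp1, the gene of a transcription factor of lymphocytes, had 40.1 CPM in stimulated cells and 35.5 CPM in resting cells (0.17 ± 0.24, adjusted p = 0.599). Gab1, the gene of a signalling adaptor, had 17.1 CPM in stimulated cells and 16.7 CPM in resting cells (0.02 ± 0.32, adjusted p = 0.965). Some other comparisons passed in edgeR. Foxp1 was higher in stimulated than in resting EVs (0.68 ± 0.24, adjusted p = 0.0182), and Gab1 was not (0.18 ± 0.32, adjusted p = 0.653). In DMSO over resting cells 1 of the 2 was higher and 1 lower (39.9% of all features called). In GW4869 cultures 2 of 2 were higher in EVs than in cells (68.2% of all features called).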
